A study of Mus musculus with 9 samples.

Results

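MEIS1 binding was compared between mouse leukaemia cells with and without induced TGIF1, from 4 of the 9 samples of the series. The members are MEIS1 binding sites. A site was a cluster of peaks that overlapped by at least 1 bp across the 4 MEIS1 peak lists, and 139820 of the 182249 peaks of the series fell into 55113 such sites. The cells came from C57BL/6 mice: c-kit+ bone marrow was transformed with MLL-AF9, a leukaemia fusion oncogene, and the transformed cells received pMIG-TGIF1-ER, which codes for TGIF1 joined to an estrogen receptor part. All 4 samples carried both MLL-AF9 and TGIF1-ER, and an antibody labelled Meis was used for each. The MEIS1_4OHT group had 2 libraries of cells given 4-hydroxytamoxifen (4-OHT), which switches TGIF1-ER on, for 20 h. The MEIS1_EtOH group had 2 libraries of cells given ethanol. Cells given 4-OHT without TGIF1-ER were not analysed here, so effects of 4-OHT and of TGIF1-ER cannot be told apart. TGIF1 is supplied by a viral construct, and the labels do not say whether the cells are 1 clone, whether the 2 libraries of a group are separate cultures, or how old the mice were. The spread between libraries may therefore be technical.

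MEIS1 is a homeodomain protein of the TALE class. It binds DNA together with HOX and PBX proteins, and in leukaemias with an MLL fusion it is a main partner of HOXA9 in keeping cells in a self-renewing state. TGIF1 belongs to the same TALE class, recognises a similar short DNA core and acts as a repressor that recruits corepressors. The comparison asked whether MEIS1 sat at other places, or changed the shape of its peaks, once TGIF1 was active in the nucleus.

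The lists hold chromosome, start, end, length and summit of each peak, with no score or read number, so the depth of every library is unknown. EtOH replicate 1 had 26254 peaks with a median width of 362 bp, and EtOH replicate 2 had 43564 with a median of 633 bp. The 4-OHT lists had 21173 peaks (median 442 bp) for replicate 1 and 48829 (median 571 bp) for replicate 2. In both treatments replicate 2 thus had more and wider peaks than replicate 1, and the 2 treatments overlapped in both respects. Any comparison of a replicate 1 with a replicate 2 list sets a short list against a long one, and values were read with that in mind. No gene is named because the reference at hand is of another build than the mm9 of the lists. The labelled cell type could not be checked against marker genes from peak positions.

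MEIS1 occupied mostly the same places with and without active TGIF1. A peak under both treatments was present at 39497 of the 55113 sites (71.7%, exact Clopper-Pearson 95% interval 71.3 to 72.0%, which like all intervals here covers counting error only). Peaks in EtOH lists alone marked 6142 sites (11.1%), and peaks in 4-OHT lists alone marked 9474 (17.2%). Fewer sites, 27353 (49.6%), had a peak in lists of both replicate numbers. The rest were 1-sided: 25695 (46.6%) had peaks in the longer replicate 2 lists alone, and 2065 (3.75%) in the shorter replicate 1 lists alone. List length enters this split.

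The largest class of sites, 15850 (28.8%), had a peak in all 4 lists. The next, 13293 sites (24.1%), was found in EtOH replicate 2 and 4-OHT replicate 2 and in neither replicate 1 list. Sites that followed the treatment in both libraries were few. There were 664 in both EtOH lists and no 4-OHT list (1.20%), and 640 in both 4-OHT lists and no EtOH list (1.16%). Sites in both replicate 1 lists and no replicate 2 list were fewer still, 155 (0.28%). A single list accounted for 14312 sites, of which 8333 were private to 4-OHT replicate 2, 4069 to EtOH replicate 2, 1409 to EtOH replicate 1 and 501 to 4-OHT replicate 1. The number of private sites rose with the length of the list: 17.3% of the sites of 4-OHT replicate 2 and 2.43% of those of 4-OHT replicate 1 had no peak elsewhere.

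**Figure D1:**
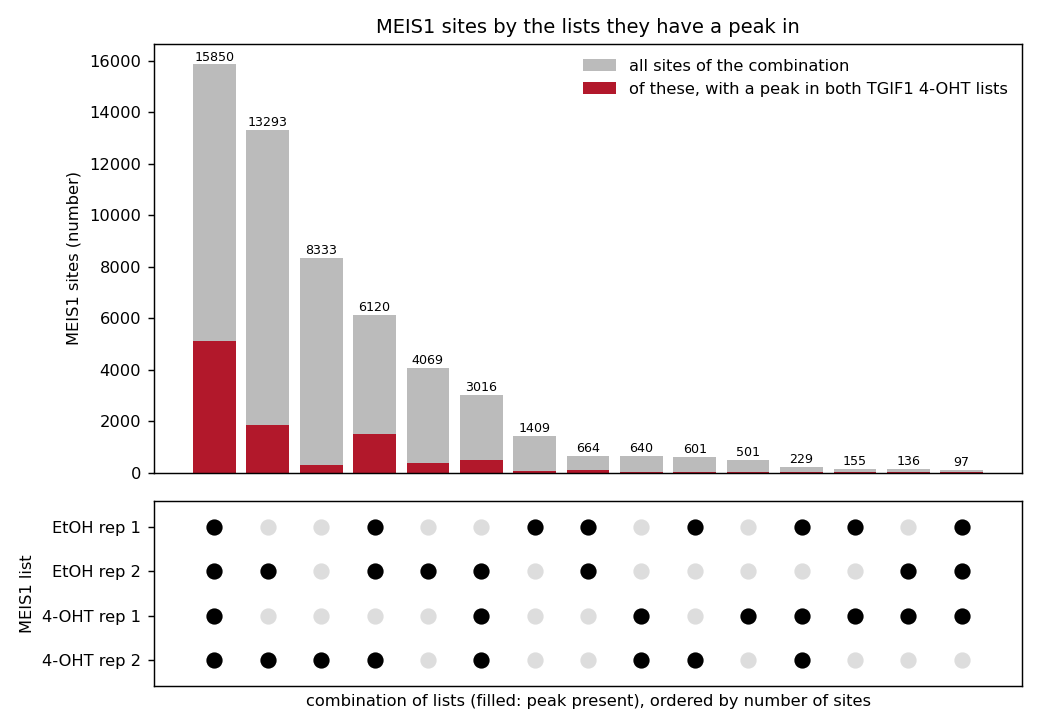
Number of MEIS1 sites (vertical axis) for each combination of the 4 lists, shown by filled circles under the bars. Grey bars are all sites, and the red part are those with a peak in both TGIF1 4-OHT lists. The 2 tallest bars are the 15850 sites in all 4 lists and the 13293 sites in both replicate 2 lists, and the combinations that follow treatment hold 664 and 640 sites.

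Sites in all 4 lists were the widest for their lists, and the other combinations followed no strict order by number of lists. Within each list, every peak was given a width rank from 0 (narrowest) to 100 (widest). Sites in all 4 lists had a median rank of 60.6 in their own lists and a median width of 736 bp after merging. Sites in both replicate 2 lists alone had a median rank of 43.5. The sites in both EtOH lists alone had 29.6 and those in both 4-OHT lists alone 26.3. Private sites had medians between 22.9 and 24.8. The other combinations of 2 lists had 27.4, 34.0 and 21.8, and the combinations of 3 lists ranged from 28.5 to 47.8. Sites confined to 1 treatment were therefore narrow for their lists, close to the sites that a single library called. A further 1141 sites (2.07%) lay within 100 bp of the site before them and remained separate.

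The few wide sites found under 1 treatment stand apart from that median. The widest by rank under EtOH alone lay on chromosome 15 from 98999807 to 99002296 (mm9, as are all coordinates, counted from 1), with peaks of 2049 bp in replicate 1 and 2490 bp in replicate 2. Chromosome 7 from 71220432 to 71222937 (740 and 2506 bp) and chromosome 17 from 24232675 to 24234140 (1078 and 1465 bp) followed. Of these 3, the site on chromosome 7 overlapped a peak of TGIF1 4-OHT replicate 2, and the others overlapped no TGIF1 peak. Under 4-OHT alone, the widest lay on chromosome 1 from 84987575 to 84992502 (3975 bp in replicate 1 and 4911 bp in replicate 2). It overlapped a TGIF1 peak in EtOH replicate 1 and in no other TGIF1 list. Chromosome 5 from 125866457 to 125868679 (2070 and 2223 bp) overlapped a peak in both TGIF1 4-OHT lists, and chromosome 1 from 87477162 to 87478979 (1389 and 1818 bp) overlapped none.

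Peaks of a short list were found again in a long list about as often across treatments as within one. EtOH replicate 1 had 90.8% of its peaks in EtOH replicate 2 (23838 of 26254, exact 95% interval 90.4 to 91.1%). In 4-OHT replicate 2 it had 90.9% (23863, interval 90.5 to 91.2%). For this list the other treatment recovered as many peaks as the other replicate, but 4-OHT replicate 2 was the longer of the lists searched. 4-OHT replicate 1 had 95.7% of its peaks in 4-OHT replicate 2 (20265 of 21173, interval 95.4 to 96.0%) and 92.7% in EtOH replicate 2 (19631, interval 92.4 to 93.1%). Here the pair within the treatment shared more, again with the longer list. Both readings changed with every list reduced to its 21173 widest peaks. EtOH replicate 1 was then found at 63.5% in EtOH replicate 2 and at 59.2% in 4-OHT replicate 2. For 4-OHT replicate 1 it was 55.7% in 4-OHT replicate 2 and 58.6% in EtOH replicate 2. Over the full lists, the mean was 93.3 ± 3.47% (SD, n = 2 pairs) within a treatment and 91.8 ± 1.29% (SD, n = 2 pairs) across. The difference of -1.45 percentage points is smaller than the spread of the pairs within a treatment. Exchanging the treatment labels within a replicate number only turns the sign of this difference, so the exact two-sided permutation p is 1.0 whatever its size. Its sign turned to 0.0952 points without 4-OHT replicate 1, to 1.92 points without 4-OHT replicate 2 and to 0.683 points with a reciprocal overlap of 50%.

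Libraries of the same replicate number shared more sites than libraries of the same treatment. As a share of all sites in either list, EtOH replicate 2 and 4-OHT replicate 2 had 72.2% in common, and EtOH replicate 1 and 4-OHT replicate 1 had 55.5%. The 2 EtOH lists had 49.8% in common and the 2 4-OHT lists 40.3%. List length enters these shares. With every list reduced to its 21173 widest peaks, 77.3% of the EtOH replicate 2 peaks were found in 4-OHT replicate 2 and 68.7% of the EtOH replicate 1 peaks in 4-OHT replicate 1. The share of replicate 1 peaks found in the replicate 2 list was then 63.5% within EtOH and 55.7% within 4-OHT. Across both treatment and number it was 59.2% for EtOH replicate 1 and 58.6% for 4-OHT replicate 1. The order of like and unlike numbers was the same at equal list length.

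Loss between the long lists was found chiefly among narrow peaks. The peaks of each list were divided into 5 classes of width. Of EtOH replicate 2 peaks, 97.2% of the widest class (median 1065 bp) had a partner in 4-OHT replicate 2, and 74.6% of the narrowest (median 479 bp). In the other direction the shares were 94.9% for the widest class of 4-OHT replicate 2 and 57.5% for the narrowest. Wide peaks were therefore recovered across the treatments nearly completely in the longest lists. The replicate 1 lists behaved alike at lower levels: EtOH replicate 1 peaks in 4-OHT replicate 1 went from 45.8% in the narrowest class to 85.3% in the widest. Searched in a long list, the widest class of EtOH replicate 1 was recovered at 96.9% in EtOH replicate 2 and at 96.7% in 4-OHT replicate 2. For 4-OHT replicate 1 it was recovered at 98.2% in 4-OHT replicate 2 and 97.3% in EtOH replicate 2.

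**Figure D2:**
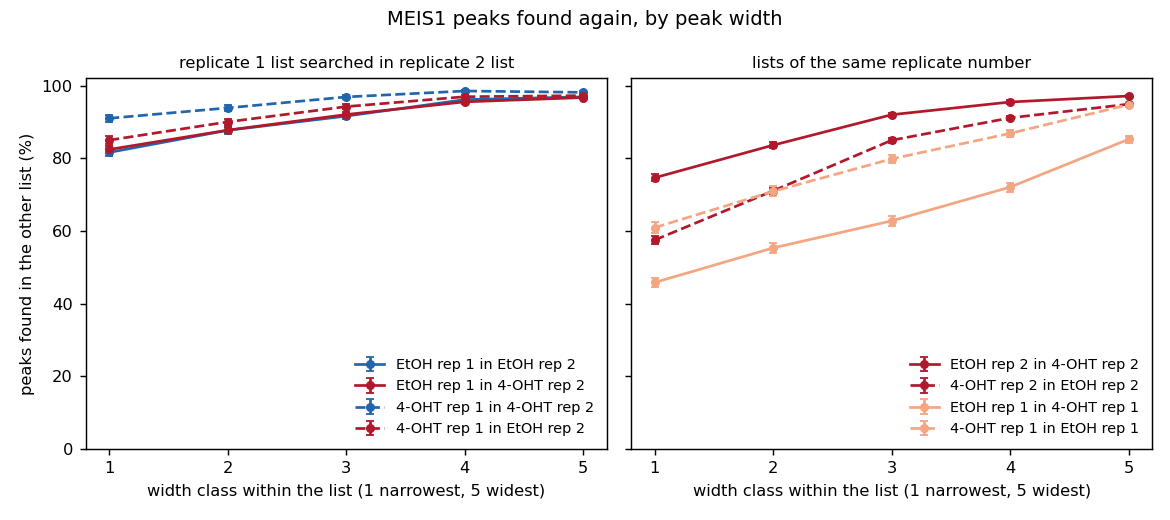
Share of peaks found in another list (%, vertical axis) by width class of the searched list (1 narrowest, 5 widest). Points are single lists with exact 95% binomial intervals. Left, replicate 1 lists searched in replicate 2 lists of the same treatment (blue) or the other (red). Right, lists of like number. All curves on the right rise to the widest class, to 97.2% for EtOH replicate 2 in 4-OHT replicate 2, and the blue and red curves of EtOH replicate 1 lie on each other.

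Width rank was then followed at the 15850 sites with a peak in all 4 lists, which are kept sites by definition. Ranks were taken anew over these sites, so that every list was ranked over the same sites. List length still enters through the choice of sites. They were 76.9% of the sites of 4-OHT replicate 1 and 33.0% of those of 4-OHT replicate 2. At these sites the median width was 399 bp in EtOH replicate 1, 713 bp in EtOH replicate 2, 467 bp in 4-OHT replicate 1 and 651 bp in 4-OHT replicate 2. Where a list had several peaks at a site, their widths were summed, and 1311 of the sites (8.27%) had several in some list. No site changed its width rank past the threshold in limma (adjusted p under 0.05 over all 15850 sites, 0 higher and 0 lower, 0% of those tested). At an unadjusted p under 0.05 limma gave 388 sites, 2.45% of those tested. Both 4-OHT ranks lay above both EtOH ranks at 2115 sites (13.3%) and below them at 2078 (13.1%), so neither direction led.

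The difference with treatment lay between the differences of the 2 replicate pairs in the replicate 1 lists and below both in the replicate 2 lists. The standard deviation over sites of the rank difference between 4-OHT and EtOH was 26.7 points in replicate 1 and 16.5 points in replicate 2. Between replicates it was 26.1 points under EtOH and 27.4 points under 4-OHT. A difference of over 50 points was present at 1175 sites (7.41%) between the replicate 1 lists, 235 (1.48%) between the replicate 2 lists, 1029 (6.49%) between the EtOH replicates and 1255 (7.92%) between the 4-OHT replicates. The 2 replicate 2 lists were the most alike of all pairs, with r = 0.84 across the common sites. The other 5 pairs lay between 0.54 and 0.59. These correlations describe sites within 4 libraries, whose pairs share libraries, and sites are not replicates.

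**Figure D3:**
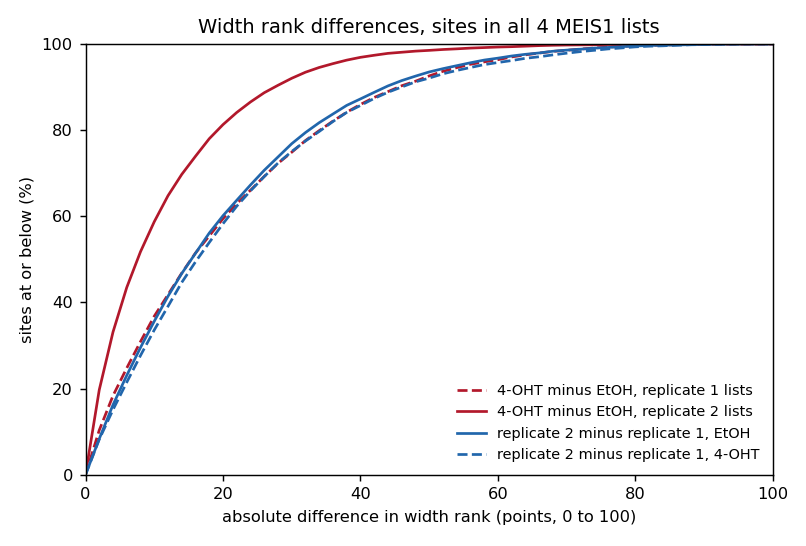
Cumulative share of the 15850 common sites (%, vertical axis) by absolute difference in width rank (points, horizontal axis). Red lines set 4-OHT against EtOH in lists of 1 replicate number, and blue lines set the replicates of 1 treatment against each other. The red line of the replicate 2 lists lies left of the rest, with 1.48% of sites over 50 points, and the other 3 lines lie together.

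The widest common sites are given for their position. They were chosen by their mean rank over all 4 libraries, which fixes a high rank in each and a small difference between treatments. Among sites with 1 peak in each list, the highest mean rank belonged to chromosome 1 from 90171857 to 90175360. Its ranks were 99.1 and 99.9 under EtOH and 99.9 and 99.8 under 4-OHT, with widths of 1132, 3137, 1959 and 2766 bp in the same order. A site on chromosome 15 (start 76028292, end 76030665) came next, with ranks of 99.1, 99.5, 99.5 and 99.6. Chromosome 6 followed (start 47717117, end 47720666) with 99.7, 98.0, 99.8 and 99.9. A second place on chromosome 6 (47721130 to 47723451) and neighbours on chromosome 1 (85093559 to 85097402, and 85076086 to 85078429) were also among the 10. The remaining 4 were on chromosomes 13 (99827931 to 99829816), 1 (181092862 to 181094727), 2 (158131496 to 158133487) and 17 (28992231 to 28993970). Of the 10, 6 overlapped a peak in both TGIF1 4-OHT lists, beside 54.7% of the widest class of common sites.

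The largest rises in width rank came from sites that were narrow in both EtOH libraries. At chromosome 13 from 110116819 to 110117742 the ranks were 11.8 and 8.52 under EtOH and 92.5 and 79.3 under 4-OHT. The width was 277 and 530 bp under EtOH and 740 and 924 bp under 4-OHT, and in at least 1 list it was summed over several peaks. The groups did not overlap, and the rank difference was 75.7 points (SE 11.01, limma adjusted p = 1.00). Ranked by the widest peak within the whole list, the difference was 51.8 points. Chromosome 18 from 69697037 to 69697926 had EtOH ranks of 1.16 and 28.2 and 4-OHT ranks of 79.1 and 77.2. The next sites were chromosome 18 from 81776512 to 81777383 (59.3 points, SE 11.1), chromosome 8 from 86383299 to 86384302 (56.4 points, SE 10.9) and chromosome 3 from 82511428 to 82512095 (55.3 points, SE 14.2). None of these 5 overlapped a peak in any of the 4 TGIF1 lists.

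By summed width, the largest fall was close in size to the largest rise, and the next 4 falls were larger than the next 4 rises. At chromosome 6 from 51556300 to 51557464 the ranks were 91.0 and 87.6 under EtOH and 18.9 and 5.56 under 4-OHT, with widths of 666, 1165, 372 and 451 bp. The rank difference was -77.1 points (SE 11.03, limma adjusted p = 1.00), and the site carried a peak in TGIF1 EtOH replicate 1 and in both TGIF1 4-OHT lists. Chromosome 5 from 108395199 to 108396330 had EtOH ranks of 88.8 and 86.2 and 4-OHT ranks of 2.18 and 21.0, and chromosome 4 from 8814898 to 8815912 had 91.0 and 81.3 against 11.3 and 17.7. Chromosome 6 from 56707752 to 56708751 (-71.2 points, SE 11.3) and chromosome 5 from 103072328 to 103073266 (-67.0 points, SE 11.3) completed the 5. All 5 had several peaks in at least 1 list. Ranked by the widest peak within the whole list, they fell by -62.8, -44.2, -38.4, -52.2 and -36.9 points in the order given. The 5 rising sites then rose by 51.8, 60.6, 57.2, 49.5 and 54.0 points, so the order by summed width was not kept. Of these 5 falling sites, 4 overlapped a peak of TGIF1 4-OHT replicate 2, and the one on chromosome 4 overlapped no TGIF1 peak. These sites were picked for the size of their change, and so few sites give no test of a link with TGIF1. One or both TGIF1 4-OHT lists had a peak at 54.3% of all common sites.

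The common sites that overlapped induced TGIF1 were wider MEIS1 sites, by mean rank and median width, than those without in every library. All TGIF1 overlaps here were taken with the span of the site merged over the 4 MEIS1 lists. A wider site thus has more room to overlap a TGIF1 peak, so width is partly built into this class. The median merged width was 863 bp with TGIF1 and 669 bp without. Of the 15850, 5096 (32.2%) overlapped a peak in both TGIF1 4-OHT lists and 7248 (45.7%) overlapped none. Under EtOH, the median summed MEIS1 width was 452 bp at sites with TGIF1 and 362 bp at sites without in replicate 1, and 828 and 647 bp in replicate 2. The 4-OHT libraries gave 505.5 and 443 bp in replicate 1 and 754 and 596 bp in replicate 2. With the common sites in 5 classes of mean width rank, both TGIF1 4-OHT lists had a peak at 14.8% of the narrowest, 22.2%, 29.5% and 39.6% of those between and 54.7% of the widest. The sites with TGIF1 under 4-OHT thus had the greater summed MEIS1 width in the ethanol-treated cells too.

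The mean advantage in summed width of TGIF1-occupied sites was smaller under 4-OHT, and the libraries of the 2 treatments overlapped. Sites with several peaks in a list were unevenly divided. Exactly 1 peak in each list was present at 4342 of the 5096 sites with TGIF1 and 7017 of the 7248 without. The gap over such sites alone was not computed. The gap in mean width rank, sites with TGIF1 minus sites without, was 19.9 points in EtOH replicate 1, 25.3 in EtOH replicate 2, 14.7 in 4-OHT replicate 1 and 22.3 in 4-OHT replicate 2. The mean was 22.6 ± 3.84 points (SD, n = 2) under EtOH and 18.5 ± 5.35 points (SD, n = 2) under 4-OHT, a difference of -4.07 points with an exact two-sided permutation p of 0.667. The difference lies above the SD under EtOH and below that under 4-OHT. The smallest p that 2 against 2 libraries allow is 0.333. Within the replicate numbers the difference was -5.14 points for replicate 1 and -3.00 points for replicate 2. It was -0.29 points without 4-OHT replicate 1, -1.36 points without EtOH replicate 2, -6.79 points without EtOH replicate 1 and -7.85 points without 4-OHT replicate 2.

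Site by site, the same tilt was small. At the 5096 sites with TGIF1, both 4-OHT ranks lay above both EtOH ranks at 490 (9.62%) and below them at 743 (14.6%). At the 7248 sites without TGIF1 the counts were 1209 above (16.7%) and 919 below (12.7%). Beside the 13.3% and 13.1% of all common sites, sites with TGIF1 had a lower share of rises and sites without a higher one. The median rank difference, 4-OHT minus EtOH, was -0.89 points with TGIF1 and 1.54 points without, against standard deviations of 15.4 and 16.5 points over sites. In each of the 5 width classes the median was below 0 with TGIF1, from -3.24 to -0.20 points, and above 0 without, from 0.65 to 3.71 points. In the narrowest class both 4-OHT ranks lay below both EtOH ranks at 24.3% of the sites with TGIF1 and 15.0% of those without, and in the widest class 9.92% and 7.70%. The sites share 4 libraries, so these shares describe the libraries and carry no test.

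**Figure D4:**
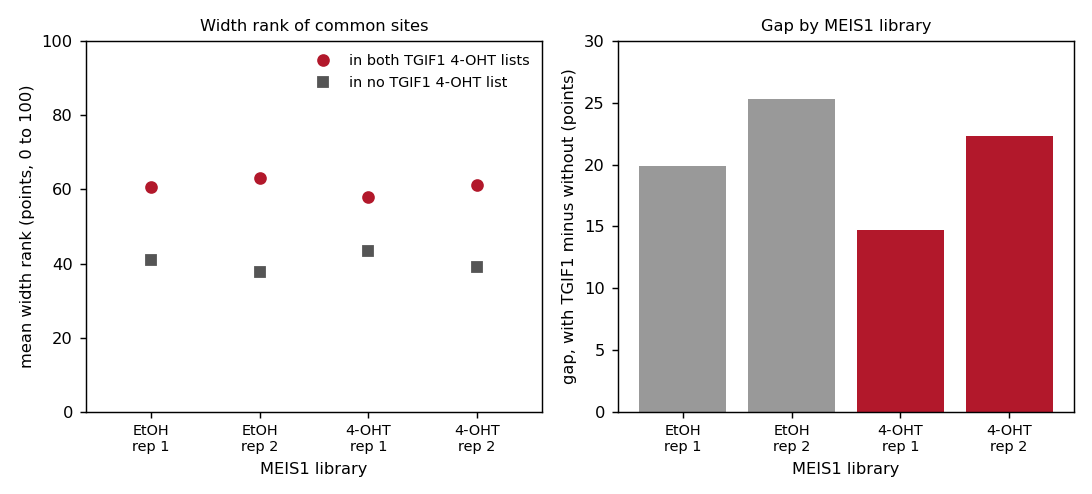
Left, mean width rank (points, 0 to 100) of common MEIS1 sites with a peak in both TGIF1 4-OHT lists (circles, 5096 sites) and in none (squares, 7248 sites) in each MEIS1 library. Right, the gap between them (points, bars from 0), grey for EtOH and red for 4-OHT. The gap is 14.7 to 25.3 points, and the 2 treatments overlap.

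Occupancy by TGIF1 also differed between the combinations of lists. Sites in both EtOH lists alone overlapped a peak in both TGIF1 4-OHT lists at 13.4% (89 of 664, exact 95% interval 10.9 to 16.2%). Those in both 4-OHT lists alone did so at 4.69% (30 of 640, interval 3.18 to 6.62%). The medians of width rank were near each other in these groups, 29.6 and 26.3. The private sites of the long lists lay the same way, with 9.02% for EtOH replicate 2 (367 of 4069) and 3.68% for 4-OHT replicate 2 (307 of 8333). For the private sites of the short lists the shares were 4.54% (64 of 1409) for EtOH replicate 1 and 2.59% (13 of 501) for 4-OHT replicate 1, with overlapping intervals of 3.52 to 5.76% and 1.39 to 4.40%. In all 3 pairings the EtOH sites had the higher share, but over all combinations the share went with a single library, EtOH replicate 2. Combinations with a peak in EtOH replicate 2 had 9.02 to 32.2%, and those without one had 2.59 to 6.32%. Sites in EtOH replicate 2 and 4-OHT replicate 1 alone had 12.5%, and those in EtOH replicate 1 and 4-OHT replicate 2 alone 6.32%. A difference by treatment cannot be told apart from one of that library. The sites in both replicate 2 lists alone stood at 13.8%, and no such share was tested across libraries.

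MEIS1 summits, the point of the highest signal inside a peak, lay within 50 bp of each other in all 4 libraries at most sites. They were compared at the 14539 common sites (91.7%) with exactly 1 peak in each list. The median distance between summits was 14 bp between the EtOH replicates and 13 bp between the 4-OHT replicates. Across treatments it was 16 bp between the replicate 1 lists and 8 bp between the replicate 2 lists. The unlike pairs gave 14 bp for EtOH replicate 1 with 4-OHT replicate 2 and 13 bp for EtOH replicate 2 with 4-OHT replicate 1. The distance between treatments was therefore above both replicate distances in the replicate 1 lists and below both in the replicate 2 lists. All 4 summits lay within 50 bp of each other at 11252 sites (77.4%) and were spread over more than 200 bp at 559 (3.84%). The median signed distance was 0 bp in all 6 pairs.

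**Figure D5:**
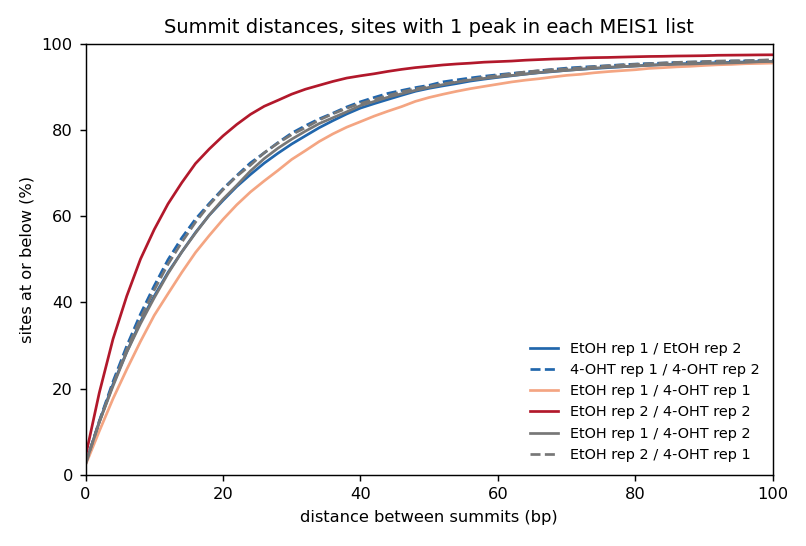
Cumulative share of the 14539 sites with 1 peak in each list (%, vertical axis) by distance between the summits of 2 libraries (bp, horizontal axis), 1 line per pair. Blue lines are replicates of 1 treatment and the other lines cross the treatments. The pair of replicate 2 lists lies highest, with 94.8% of sites within 50 bp, and the pair of replicate 1 lists lowest, with 87.6%.

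Spread-out summits belonged to wide sites. In the narrower 50% of the sites 0.22% had summits spread over more than 200 bp, in the wider 50% 7.48%, and at sites of 1 kb or more 12.6%. Sites with TGIF1 in both 4-OHT lists had 5.48% and a median site width of 804 bp, and sites without TGIF1 had 2.34% and 665 bp. The median distance between EtOH and 4-OHT summits was 17 bp with TGIF1 and 15 bp without in the replicate 1 lists, and 9 and 8 bp in the replicate 2 lists. Between replicates it was 14 and 13 bp under EtOH and 13 and 12 bp under 4-OHT. The medians at sites with TGIF1 were 1 to 2 bp higher between replicates and between treatments alike, and this difference was not tested.

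At 5 sites the summit shifted past the threshold in limma, 3 towards higher and 2 towards lower coordinates (0.0206% and 0.0138% of the 14539 tested). At an unadjusted p under 0.05 there were 451, or 3.1%. Both 4-OHT summits lay above both EtOH summits at 14% of the sites and below them at 14.8%. All 5 called sites were wider than 1 kb. The clearest was chromosome 5 from 135624544 to 135625864. Its summit lay 304 and 289 bp from the start of the site under EtOH and 1048 and 1044 bp under 4-OHT, a shift of 749.5 bp (SE 9.14, limma adjusted p = 0.0113). The peak of 4-OHT replicate 1 was 427 bp wide there and that of EtOH replicate 1 888 bp, while both replicate 2 peaks were 1292 bp. The site had a peak in both TGIF1 4-OHT lists and none in the TGIF1 EtOH lists.

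The other called sites had the same form, a tight pair of summits per treatment inside 1 wide site. On chromosome 1 from 60236842 to 60238020 the summits lay at 352 and 342 bp under EtOH and at 903 and 889 bp under 4-OHT (549 bp, SE 9.56, limma adjusted p = 0.0129). On chromosome 9 from 108249457 to 108250815 they lay at 1026 and 1028 bp under EtOH and at 508 and 519 bp under 4-OHT (-513.5 bp, SE 8.18, adjusted p = 0.0129 in limma). This site had a peak in both TGIF1 4-OHT lists and in TGIF1 EtOH replicate 1. On chromosome 15 from 98859311 to 98861488, at 2178 bp the widest of the 5, the shift was 351 bp (SE 7.25, limma adjusted p = 0.0176). On chromosome 6 from 146380204 to 146381535 it was -278 bp (SE 7.49, limma adjusted p = 0.0352), and no TGIF1 list had a peak there. Of the 5, 3 carried a peak in both TGIF1 4-OHT lists, as did 4342 of the 14539 sites tested and 54.7% of the widest class of common sites. None of the 5 passed the threshold when a library was left out, with the replicate number as a block, or with the summit taken as a share of the peak width. The lowest adjusted p over these 6 alternatives was 0.194 to 0.215 by site. The shift itself hardly changed when a library was left out, from 742 to 757 bp on chromosome 5 and from 542 to 556 bp on chromosome 1. This follows from the tight pairs of summits for which these sites were called, and adds no support. With 1 library left in a treatment, the spread comes from the other treatment alone, and the lone library is assumed to vary like it.

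Large shifts below the threshold had looser summits. The sites of the 5 largest shifts without overlap of the treatments included chromosome 9 from 107455923 to 107457286, with summits at 1003 and 933 bp under EtOH and at 271 and 277 bp under 4-OHT (limma adjusted p = 0.0676). Chromosome 2 from 61430762 to 61431995 had 401 and 386 bp under EtOH and 1035 and 970 bp under 4-OHT (limma adjusted p = 0.0749). The fifth, chromosome 15 from 78936036 to 78937609, had 877 and 743 bp against 279 and 307 bp (limma adjusted p = 0.472).

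No 1-Mb window gained or lost MEIS1 peaks past the threshold with all 4 libraries. Of 1636 windows of 1 Mb with a mean of at least 5 peaks, 0 passed the threshold in limma in the share of the list's peaks, taken as log2 of peaks per 10000 plus 0.5. At an unadjusted p under 0.05 there were 48, 2.93% of those tested, and both 4-OHT shares lay above both EtOH shares in 15.7% of the windows and below in 13.8%. The standard deviation over windows of the log2 difference between treatments was 0.36 in replicate 1 and 0.21 in replicate 2, beside 0.33 between the EtOH replicates and 0.40 between the 4-OHT replicates. A difference of over 2-fold on this scale between treatments was found in 19 windows for replicate 1 and 0 for replicate 2, and between replicates in 16 windows under EtOH and 29 under 4-OHT. With 1 library in a treatment, and the spread taken from the other treatment alone, limma called 4 windows without EtOH replicate 2 and 2 without 4-OHT replicate 2.

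The densest window was chromosome 15 from 78000001 to 79000000, with 74 and 100 peaks under EtOH and 49 and 105 under 4-OHT. As a share of each list that was 28.2 and 23.0 peaks per 10000 under EtOH and 23.1 and 21.5 under 4-OHT, and the treatments overlapped. Chromosome 2 from 167000001 to 168000000 had 22.9 and 21.3 per 10000 under EtOH and 24.1 and 20.3 under 4-OHT. The largest falls and rises were in windows with few peaks. The largest fall, on chromosome 12 from 60000001 to 61000000, had 4 and 8 peaks under EtOH and 0 and 8 under 4-OHT (log2 difference -1.07, SE 0.57, limma adjusted p = 0.997), so its groups overlapped. Chromosome 4 from 42000001 to 43000000 was next, with 8 and 8 peaks under EtOH and 2 and 4 under 4-OHT (log2 difference -1.06, SE 0.24, limma adjusted p = 0.997). The third, chromosome 14 from 35000001 to 36000000, had 5 and 9 peaks under EtOH and 0 and 13 under 4-OHT. Rises were led by chromosome 14 from 37000001 to 38000000, with 1 and 5 peaks under EtOH and 3 and 11 under 4-OHT (log2 difference 0.93, SE 0.32, limma adjusted p = 0.997). Chromosome 18 from 79000001 to 80000000 had 2 and 6 against 6 and 10 peaks, and chromosome 16 from 65000001 to 66000000 had 2 and 5 against 4 and 12. In each of these 3 rising windows both 4-OHT shares lay above both EtOH shares.

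By chromosome, the mean share of peaks differed between treatments by a median of 0.0964 percentage points over 20 chromosomes. The largest difference was on chromosome 13, with 5.50 and 5.17% of the peaks under EtOH and 6.04 and 5.38% under 4-OHT. These values overlap, since EtOH replicate 1 lies above 4-OHT replicate 2. The treatments did not overlap on 6 of the 20 chromosomes, and the replicate numbers did not overlap on 12. Among the 6, the largest difference of means was -0.213 points, on chromosome 5 (6.34 and 6.16% under EtOH, 6.10 and 5.98% under 4-OHT). Between replicate numbers the median difference was 0.109 points and the largest 0.585 points, on chromosome 11, where replicate 2 had the higher share under both treatments (6.43 and 6.96% under EtOH, 6.06 and 6.71% under 4-OHT). The share of sites found in all 4 lists ranged from 22.2% on chromosome X to 32.2% on chromosome 15.

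Sites in 4-OHT lists alone lay farther from the common sites than the other classes did. The nearest other site of the 4-list class was a median of 19.5 kb away from sites of that class itself, 20.0 kb from sites in EtOH lists alone and 25.6 kb from sites in 4-OHT lists alone. Such a neighbour within 10 kb was present at 33.0%, 33.5% and 27.9% of them, and at 30.3% of the sites of a single list. Of the 9474 sites in 4-OHT lists alone, 8333 were private to 4-OHT replicate 2.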

How the data were processed

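ChIP-seq of 4 MEIS1 libraries was analysed, and 4 TGIF1 lists served only to class MEIS1 sites. The IgG sample was not analysed here. Per the labels, lysates were sonicated to about 300 bp. The submitters' processing notes list Bowtie 0.12.7 as a tool and mm9 as genome build. Among the MEIS1 lists, the second 4-OHT library's carries a caller's name, MACS 1.4.2, per the file headers. For the others the peak caller is not given in the sources used here, nor are thresholds or controls for any. The deposited lists give positions, lengths and summits in bp, 1 list per library, and their depth is unknown.

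Peaks of the 4 lists were merged at 1 bp of overlap, and bedtools 2.31.1 gave the same 55113 sites. Width rank, summit position and the log2 share per 1-Mb window were fitted with limma 3.58.1 (R 4.3.3), with Benjamini-Hochberg adjustment over all features, and tested on simulated data. The window pseudocount was 0.5. Single values over libraries were tested by exact two-sided permutation. These ran in Python 3.11.15 (scipy 1.17.1, pandas 2.3.3, numpy 2.4.6). Named sites were those with the 10 highest mean ranks, the 5 largest rises, falls and summit shifts, the 3 widest of each treatment-bound class, and all called sites. Named windows were the 3 largest rises and falls, and the densest windows were added after their values were seen. Members, lists and rules were chosen with earlier results of these data known. Replicate numbers are shared by the groups, but nothing in the labels says that they pair the libraries. Planned gene lists and motifs were not run, as no annotation or sequence of mm9 was used here.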

Additional observations from a re-analysis of the deposited data

How the results depend on the processing

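The width rank result (0 sites called) was 0 in all 8 alternatives, with 192 to 987 sites at an unadjusted p under 0.05. The number of summit shifts called, 5, was 0 in all 7 alternatives: the replicate block, the narrower 50% of sites, the summit as a share of the width, and leaving out single libraries (0 to 0). Leaving out a library leaves 1 in its treatment, assumed to vary like the other treatment's. Fewer samples or sites enter some of these, and otherwise the cause was not tested. Windows called, 0, were 0 to 4 when single libraries were left out (4 without EtOH replicate 2, 2 without 4-OHT replicate 2) and 0 in the other 4 alternatives. The difference in peaks found again, across minus within treatments, of -1.45 percentage points was 0.683 with a reciprocal overlap of 50% and -5.53 with all 6 pairs of libraries, where lists of unlike length are mixed. Leaving out single libraries gave -4.82 to 1.92, with 0.0952 without 4-OHT replicate 1 and 1.92 without 4-OHT replicate 2. The TGIF1 gap difference remained below 0 in all 8 alternatives, and leaving out single libraries gave -7.85 to -0.29. At the 15 named sites with a rank or summit difference, 0 of 104 alternative values turned sign. The treatments did not overlap at any of these sites, so leaving out a library or adding the replicate block could not turn a sign.

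The replicate number as a block gave 0 sites by width rank, 0 summit shifts and 0 windows, and left the TGIF1 gap difference at -4.07 points (exact p = 0.5, the smallest that 2 pairs allow). Deviations of like numbers correlated across sites at 0.34 for width rank, 0.13 for summits and 0.49 for windows. With 2 numbers and lists whose lengths follow the number, this does not show pairing.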
